A study of Mus musculus with 40 samples.

Results

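The sites described here are 4391 CTCF peaks of mouse small pre-B cells at which cohesin, read as its subunit SMC3, was called after oligomycin but not in the Brwd1 knockout. They were chosen from the 21429 peaks of the first wild-type CTCF library, of which they are 20.5%. Each one overlaps, by at least 1 bp, a CTCF peak in both knockout libraries and an SMC3 peak in both oligomycin libraries, and no SMC3 peak in either knockout library. Of the 21429 peaks, 18268 were in both knockout CTCF lists, 16275 of those were in both oligomycin SMC3 lists, and 11884 of those were set aside because a knockout SMC3 list held them. Of these 11884 sites, 3536 were in exactly 1 of the knockout lists. The CTCF and SMC3 values below therefore describe how the sites were picked and carry no test.

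The study used small pre-B cells sorted by flow cytometry from bone marrow, a stage that has stopped dividing and rearranges its immunoglobulin light chain genes. ATPneg cells were wild-type cells cultured for 2 h with 126 nM Oligomycin A, KO cells were from Brwd1-/- mice, and WT cells were from wild-type mice. KO and WT cells were not cultured, so the culture and the drug cannot be told apart in the ATPneg libraries. SMC3, RAD21, NIPBL and WAPL were profiled in ATPneg, KO and WT cells, and CTCF, H3K27ac and H3K4me1 in KO and WT cells, with 2 biological replicates per antibody and condition. The mice's ages and the number of animals behind each library are not given in the sources used here.

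Cohesin is a ring-shaped complex in which SMC3 and RAD21 are core subunits. NIPBL loads it onto DNA and helps it to extrude loops, WAPL releases it, and CTCF bound to its motif stops it, so that cohesin collects at CTCF sites. Loading and extrusion use ATP. Oligomycin blocks the mitochondrial ATP synthase, and BRWD1 is a chromatin reader with bromodomains and WD repeats. In developing B cells these loops bring distant gene segments and enhancers together.

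Of the 6 members with the highest CTCF peak scores, 4 lie over the transcription start of a gene, and their promoter sequences are shown because they let the CTCF motif be seen. The sequences are RefSeq windows of 300 bases on GRCm38.p6, matched by gene symbol, running from 250 bases before to 50 bases after a start. The peaks themselves are on mm9, so no position was carried from the peak to the window. Capitals mark each match, on either strand, to 4 common spellings of the core of the CTCF motif (the spelling AGGGGGC, the spelling AGGTGGC, the spelling AGATGGC and the spelling AGAGGGC).
Wrap53, chr11:69579200-69579499, minus strand: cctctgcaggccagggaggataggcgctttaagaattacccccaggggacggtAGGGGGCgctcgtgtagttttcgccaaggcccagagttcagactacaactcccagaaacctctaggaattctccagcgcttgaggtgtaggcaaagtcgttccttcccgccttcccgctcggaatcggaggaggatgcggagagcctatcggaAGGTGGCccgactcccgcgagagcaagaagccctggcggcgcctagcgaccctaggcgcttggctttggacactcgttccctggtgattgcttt
Hnrpdl (Hnrnpdl in RefSeq), chr5:100039173-100039472, minus strand: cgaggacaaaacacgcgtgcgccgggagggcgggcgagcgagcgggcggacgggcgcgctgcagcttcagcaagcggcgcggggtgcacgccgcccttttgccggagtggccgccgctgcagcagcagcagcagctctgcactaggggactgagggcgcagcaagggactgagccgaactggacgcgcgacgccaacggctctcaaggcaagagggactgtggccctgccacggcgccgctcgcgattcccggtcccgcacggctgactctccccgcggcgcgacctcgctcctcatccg
Med4, chr14:73509799-73510098, plus strand: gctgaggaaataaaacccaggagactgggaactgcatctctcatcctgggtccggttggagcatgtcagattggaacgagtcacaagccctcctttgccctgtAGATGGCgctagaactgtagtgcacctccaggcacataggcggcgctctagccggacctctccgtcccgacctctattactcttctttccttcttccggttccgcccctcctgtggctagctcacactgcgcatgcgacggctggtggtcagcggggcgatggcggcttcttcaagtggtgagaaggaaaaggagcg
Sh3gl1, chr17:56036588-56036887, minus strand: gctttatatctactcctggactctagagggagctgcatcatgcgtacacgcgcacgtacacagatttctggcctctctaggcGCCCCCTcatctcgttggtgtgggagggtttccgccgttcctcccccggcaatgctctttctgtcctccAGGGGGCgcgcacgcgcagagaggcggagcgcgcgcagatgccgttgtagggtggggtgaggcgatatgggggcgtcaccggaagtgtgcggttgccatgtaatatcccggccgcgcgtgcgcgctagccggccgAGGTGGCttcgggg
The Wrap53 window holds 2 such cores, the Med4 window 1 and the Sh3gl1 window 3, and the Hnrpdl window holds none of these spellings. Wrap53 and Sh3gl1 have 2 windows each in the table, and the one with more cores is shown.

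Over all members, 394 lie over a transcription start, of 390 genes. RefSeq windows were found for 311 of these genes, and 217 of their 384 windows (56.5%) held a core. The share was 60.3% of 380 windows at sites with SMC3 in both knockout lists, 55.3% of 38 windows at sites with no SMC3 peak in any list, and 27.6% of all 32851 windows in the table. The core was thus about as frequent in the member promoters as in promoters of the other CTCF classes. A match describes these letters in these windows and does not show a bound site.

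The members were weaker CTCF peaks than the sites that held SMC3 in the knockout. The score of a peak is the value that the authors' peak files give, and its scale is not stated there. Members had a median score of 11.1 (quartiles 7.67 and 16.7), against 23.4 (14.8 and 33.9) for the 8515 sites with SMC3 in both knockout lists and 7.30 for the 712 sites with no SMC3 peak in any list. The order is the same by width, with medians of 237 bp for members, 316 bp for knockout SMC3 sites and 196.5 bp for sites with none. When the 18268 sites shared with both knockout CTCF lists were ranked by score and cut into 10 bins of equal size, members made up 39.2% of the lowest bin and 5.75% of the highest. Sites with SMC3 in both knockout lists ran the other way, at 12.4% of the lowest bin and 86.7% of the highest. The members' SMC3 peaks under oligomycin were also lower, with median scores of 16.6 and 15.6 in the 2 ATPneg lists, against 41.9 and 38.8 at the knockout SMC3 sites in the same lists.

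**Figure D1:**
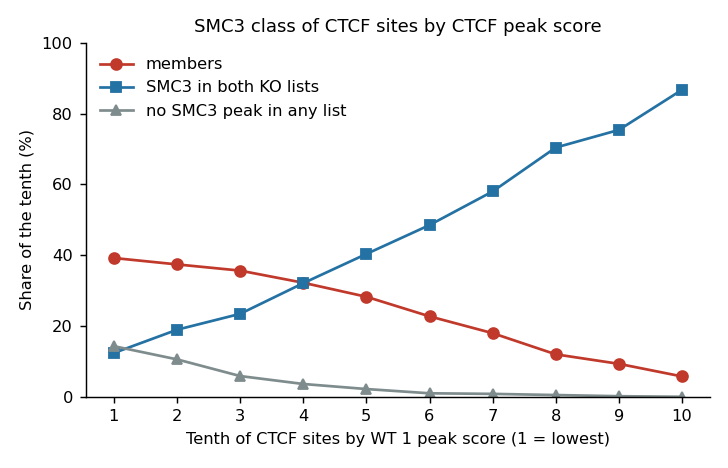
Share of CTCF sites (y axis, %) in each SMC3 class, for 10 bins of the 18268 CTCF sites ordered by CTCF WT 1 peak score (x axis, 1 lowest). The share of members falls with each bin to 5.75%, while the share with SMC3 in both KO lists climbs to 86.7%.

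The strongest members show what such a site looks like. The highest score, 113, belonged to a peak at chr11:69392709-69393177 over the start of Wrap53, which encodes a telomerase and Cajal body protein and lies head to head with Trp53. Its CTCF level in CPM (counts scaled to the library's TMM-adjusted total) was 91.5 and 92.9 in KO cells, against 82.5 and 26.8 in WT cells. The second was 11.04 kb from the start of Srrm3, a splicing factor of microexons, at chr5:136282434-136282831, with 57.6 and 63.4 CPM in KO cells and 46.0 and 12.1 in WT cells. At each of these sites the second WT library was the low value and the other 3 libraries lay closer together. The next were over the starts of Hnrpdl, an RNA-binding protein gene (chr5:100467817-100468190), Med4, a subunit of Mediator (chr14:73909408-73909914), and Sh3gl1, an endophilin of endocytosis (chr17:56175903-56176417). The Med4 site had 80.0 and 78.6 CPM in KO cells, against 57.5 and 17.8 in WT cells. The sixth lay 68.4 kb from the start of Ezh2, the methyltransferase of Polycomb repressive complex 2, at chr6:47613689-47614340. It had 145 and 230.1 CPM in KO cells and 192 and 172 in WT cells, so its groups overlapped. The counted region at Ezh2 also had 267 KO and 269 WT input reads, against a median of 17 KO and 13 WT input reads for a member.

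**Figure D2:**
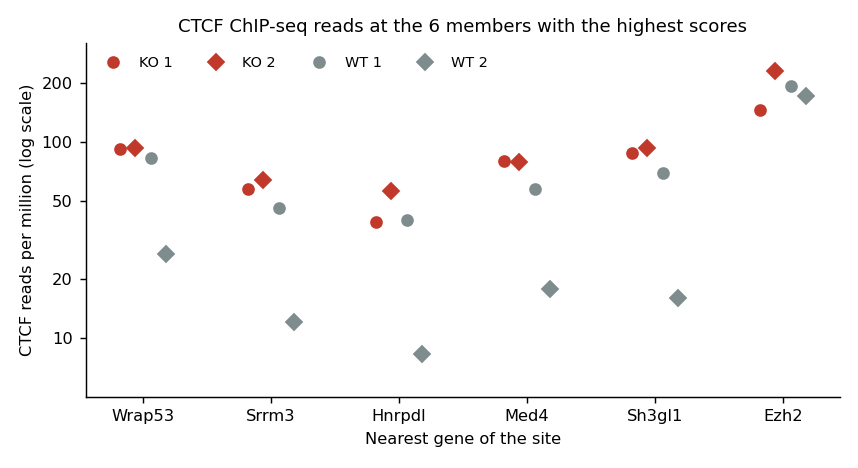
CTCF ChIP-seq CPM (y axis, log scale) at the 6 members with the highest CTCF scores (x axis, nearest gene), 1 point per library. At 5 of the 6 sites the WT 2 point lies lowest, and at Ezh2 the KO and WT points overlap.

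The CTCF libraries set a limit on every comparison of CTCF at these sites. Across the 4391 members the median was 15.6 and 16.5 CPM in KO cells, against 11.5 and 3.51 in WT cells. Both KO libraries were above both WT libraries at 3649 members, a count not made over all CTCF regions. The knockout SMC3 sites leaned the same way, with medians of 24.8 and 26.1 CPM in KO cells and 18.8 and 5.81 in WT cells. The second WT library had 17055094 reads in CTCF regions, against 3880112 to 5033230 in the other 3. Its share of reads at members was 1.04 times that of the matched input (median), against 3.71 times in the first WT library and 4.34 and 4.64 times in the KO libraries. It still had a called peak at 3426 members (78.0%). Of all 75717 CTCF regions tested, 0.0396% were called by edgeR at an adjusted p under 0.05 (0.00792% higher and 0.0317% lower in KO cells). None of the 4391 members was called, but each had to hold a CTCF peak in the first WT library and in both KO libraries. The edgeR calls therefore cannot test CTCF at the members, and no conclusion is drawn from them.

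SMC3 itself was almost never called at these sites in untreated WT cells. Peaks were present at 16 members (0.364%) in the first WT library and at 19 (0.433%) in the second, 29 in all. That scarcity is shared by other CTCF sites, since the WT lists, with 41044 and 64033 peaks, covered 2.10% and 3.03% of the knockout SMC3 sites and 3.19% and 4.38% of all 21429 CTCF peaks. The ATPneg lists held 40667 and 39437 SMC3 peaks and the KO lists 12467 and 12323. SMC3 counts were given for KO and WT cells, so 29 members had a counted SMC3 region, with 43 and 44 reads (medians) in KO cells and 101 and 64 in WT cells. KO libraries had 4010016 and 4242112 SMC3 reads, against 17667209 and 15416715 in WT cells. The depth of the ATPneg libraries is unknown, and whether depth bears on which sites were called was not tested. A peak list records the sites above the caller's threshold, so a missing peak is not a measured zero.

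Those 29 regions differed widely in SMC3. The region 8.81 kb from the start of Iqsec1, an exchange factor for ARF GTPases, had 201 and 224 SMC3 CPM in KO cells, against 532 and 395 in WT cells. The region nearest Smox, spermine oxidase, lay the other way, with 10.3 and 9.95 in KO cells and 0.979 and 1.00 in WT cells. A region 2.86 kb from the start of Bcl11a, a zinc-finger factor needed for B cell development, had 10.97 and 9.73 in KO cells and 2.02 and 3.31 in WT cells. Smox was picked after its values were seen, as the highest fold change, and KO and WT values did not overlap at any of these 3. Of the 29 regions 15 had an edgeR call, as did 40.2% of all 77109 SMC3 regions (22.1% higher and 18.1% lower in KO cells). The knockout SMC3 lists chose the sites, so these calls cannot test SMC3 at the members. No conclusion is drawn from them. Both KO values were above both WT values at 18 of the 29 regions and below them at 3, a count not made over all SMC3 regions. All 29 came in through a WT peak, since the rule allows no member a KO peak. That count carries no test either. Edge values of the rule were close: the shortest overlap that let a site in was 6 bp (nearest Ctbp1), the shortest gap of a member to a knockout SMC3 peak was 27 bp (nearest Mir5122), and the shortest overlap that kept a site out was 38 bp (nearest Dock11). Required overlaps had a median of 205 bp, and 144 members lay within 1 kb of a knockout SMC3 peak.

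RAD21, the kleisin that closes the cohesin ring, was not used to choose the sites. Under oligomycin it had a peak at 716 members (16.3%, exact 95% binomial interval 15.2 to 17.4, counting error only) in the first library and at 4122 (93.9%, 93.1 to 94.6) in the second. In KO cells it had a peak at 581 members (13.2%) in the first library and 27 (0.615%) in the second, and in WT cells at 10 (0.228%) and 8 (0.182%). Both ATPneg values were above both WT values. The ATPneg mean exceeded the WT mean by 54.9 percentage points (exact permutation test over libraries, two-sided, p = 0.333, n = 2 each, the smallest p that 2 against 2 libraries allow). Over all 21429 CTCF peaks RAD21 stood at 32.7% and 84.2% in ATPneg cells, against 2.97% and 3.23% in WT cells, so a difference of like size was present at CTCF sites in general. The size rests on a single library, since the difference was 16.1 points without ATPneg 2 and 93.7 without ATPneg 1. The 2 ATPneg lists differ in length, with 16375 and 35784 peaks, and in median peak width, 170 and 410 bp. Of the members in the first list, 712 were also in the second, and 265 members had no RAD21 peak in either.

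**Figure D3:**
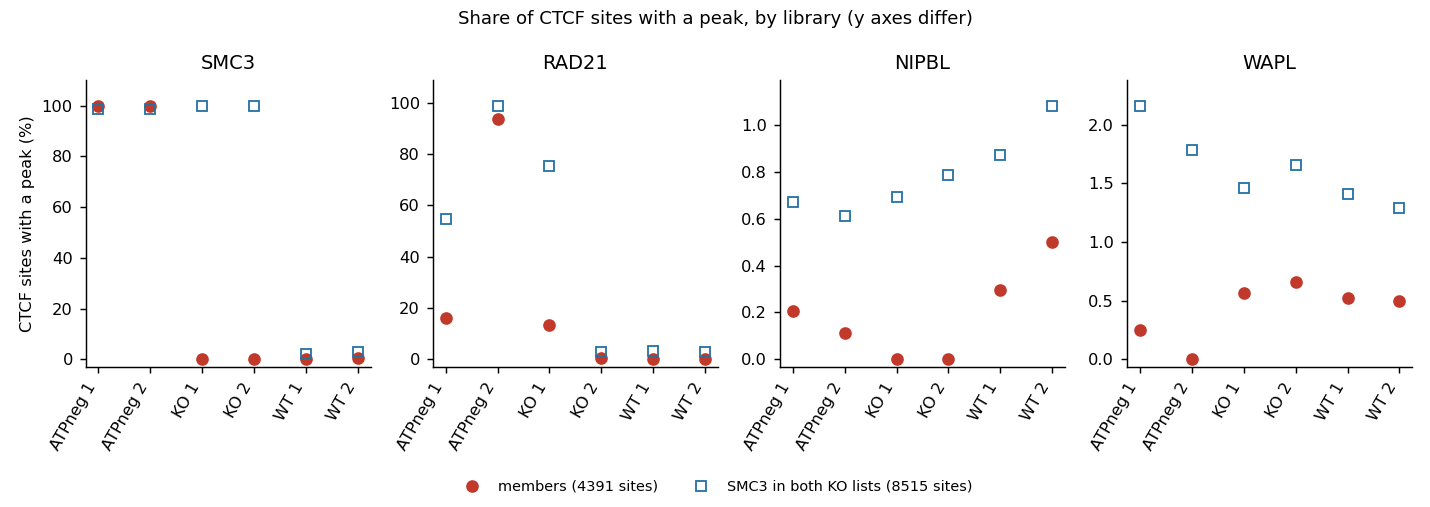
Share of CTCF sites with a peak (y axis, %, on a scale of its own for each protein) in each library (x axis, ATPneg, KO and WT, 2 each), for the 4391 members (filled) and the 8515 sites with SMC3 in both KO lists (open). SMC3 ATPneg and KO values of the members and SMC3 KO values of the open points are fixed by the choice of sites. RAD21 stood at 16.3% and 93.9% of members in ATPneg cells and under 0.25% in WT cells.

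The RAD21 peaks followed CTCF strength within the members. The members' score range was cut at its quartiles into 4 bins. From the lowest to the highest bin, the first ATPneg library had a RAD21 peak at 10.7%, 10.7%, 16.4% and 27.2% of members. Over the same score ranges it had one at 20%, 26.4%, 37.4% and 64.6% of the knockout SMC3 sites. In the second ATPneg library the shares were nearly level, from 91.1% to 96.0% of members, against 94.1% to 99.5% of knockout SMC3 sites. At sites with no SMC3 peak this library had RAD21 at 27.9%. In the first KO library RAD21 stood at 7.71%, 10.5%, 13.9% and 20.6% of members by bin, against 44.9%, 53.3%, 60.1% and 83.4% of knockout SMC3 sites. Within each bin the members thus had fewer RAD21 peaks than the knockout SMC3 sites in each of these 3 libraries. The top bin is wide, from 16.7 to 113, and members lean to its low end more than knockout SMC3 sites do. Scores are therefore not fully matched within it. These shares come from single libraries and were not tested, and in KO cells RAD21 and SMC3 belong to the same complex. Where both were called the peaks were close, with a median of 54 bp between the centres of a member's CTCF peak and its RAD21 peak in ATPneg 2.

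**Figure D4:**
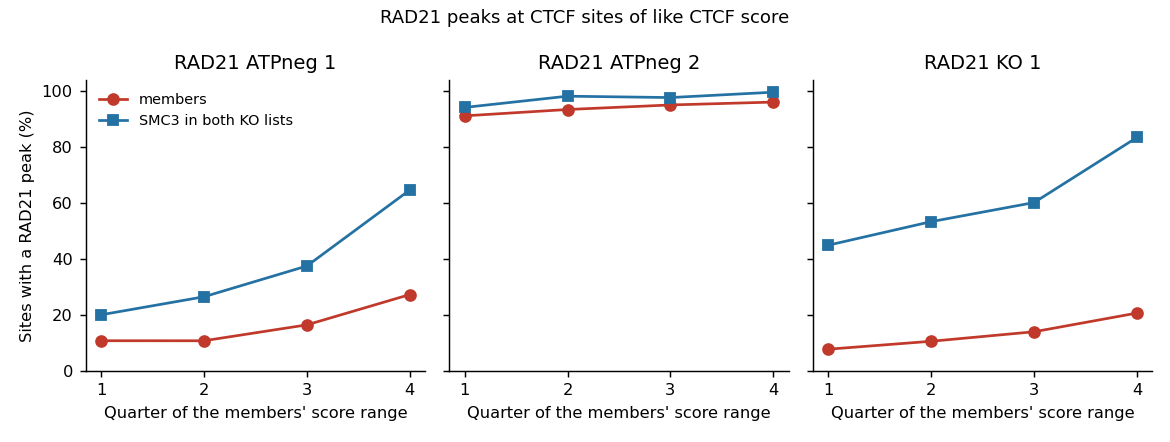
Share of sites with a RAD21 peak (y axis, %) by bin of the members' CTCF score range, cut at its quartiles (x axis, 1 lowest), in the 2 ATPneg libraries and the first KO library. Members lie under the knockout SMC3 sites in every bin, with 20.6% against 83.4% in the top bin of KO 1. Scores are not fully matched within the top bin.

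RAD21 reads in KO and WT cells could be tested at the members that had a counted RAD21 region, which required a RAD21 peak in one of those 4 libraries. There were 599 such members, and 399 passed the filter on low counts. Because 581 members came in through a peak in the first KO library, their KO values were bound to be high there. Their median was 4.56 and 0.417 CPM in KO cells, against 0.751 and 0.669 in WT cells. The KO replicates therefore lay on opposite sides of the WT pair. By edgeR's quasi-likelihood test with Benjamini-Hochberg adjustment, 6 of the 399 were higher and 1 was lower in KO cells, which is 1.75%, against 23.4% of all 84996 RAD21 regions tested (2.3% higher and 21.1% lower). Leaving out 1 library moved the members' median log2 fold change, which was 1.74 with all 4. It was 2.75 without KO 2, -0.243 without KO 1, 1.85 without WT 1 and 2.27 without WT 2. Over all regions the same fits gave -0.345, -0.261, 0.00534 and 0.586. Both KO values were above both WT values at 79 of the 599 members, a count not made over all RAD21 regions. KO libraries had 7415143 and 7194434 RAD21 reads, and WT libraries 24962590 and 21848632.

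The called RAD21 regions were mixed in kind. A region nearest Zfp932, a zinc-finger gene, at chr5:110452903-110453099, had 4.03 and 2.36 CPM in KO cells, against 0.501 and 0.714 in WT cells (log2 fold change 2.38 ± 0.47 SE, adjusted p = 0.0433, edgeR). It rested on 30 and 17 reads in KO cells and 12 and 16 in WT cells. This site and the Cables1 site below had a RAD21 peak in KO 1. Their KO 1 values were thus bound to be high, and their calls are not free of that entry. A region 9.20 kb from the start of Ugt1a6a, a glucuronosyltransferase gene, had 16.5 and 16.4 in KO cells and 7.05 and 6.29 in WT cells (log2 fold change 1.30 ± 0.22 SE, adjusted p = 0.0433, edgeR), with 110 KO and 112 WT input reads. The third, near Cables1, an adaptor of cyclin-dependent kinases, had 1003 and 987 in KO cells and 368 and 388 in WT cells, over 13101 KO and 13147 WT input reads in 114 bp. The lower region, within the gene body of Mpp7, a scaffold protein of cell junctions, had 3.89 and 4.45 in KO cells, against 13.2 and 14.3 in WT cells (log2 fold change -1.72 ± 0.24 SE, adjusted p = 0.0433, edgeR). None of these 4 groups of values overlapped, but the regions were picked by adjusted p, which favours such values. The part that high input plays in the Ugt1a6a and Cables1 values was not tested.

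The loader and the releaser of cohesin were nearly absent from the members' peak lists in every condition. NIPBL had a peak at 9 and 5 members in ATPneg cells, at 0 of 4391 in each KO list, and at 13 and 22 in WT cells. The ATPneg mean was 0.239 percentage points under the WT mean (exact permutation test, two-sided, p = 0.333, n = 2 each). WAPL had a peak at 11 members in the first ATPneg list and 0 of 4391 in the second (exact 95% upper limit 0.0840%), at 25 and 29 in KO cells and at 23 and 22 in WT cells, and its ATPneg mean was 0.387 points under the WT mean (exact permutation test, two-sided, p = 0.333, n = 2 each). Both ATPneg values lay under both WT values for each protein, with the lists as labelled. Over all 21429 CTCF peaks WAPL was at 3.10% and 3.15% in ATPneg cells, against 3.71% and 3.58% in WT cells. Lower WAPL in ATPneg cells was thus present at CTCF sites in general. NIPBL was at 2.91% and 2.85% of all these peaks in ATPneg cells, between the WT values of 2.69% and 3.50%. The lists differ in length in the same direction for WAPL, with 3280 and 4623 peaks in ATPneg cells against 76389 and 81317 in WT cells, and for NIPBL, with 14522 and 10224 against 25979 and 55995. The share of members with NIPBL or WAPL was also below that at the knockout SMC3 sites, where NIPBL stood at 0.669% and 0.611% and WAPL at 2.16% and 1.79% in ATPneg cells. For NIPBL the peak names in the second KO list and the first WT list carry each other's sample name, and the labels of those 2 lists are followed here. With these lists exchanged the WT values would be 0 and 22 members, and both ATPneg values would lie between them. By length the second KO list, with 2048 peaks, is close to the first KO list, with 2333.

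In counts, 25 members had an NIPBL region and none was called between KO and WT cells by edgeR, against 1.63% of all 61586 regions tested (0.995% higher and 0.63% lower). DESeq2 also called 0, and 5 of the 25 had an unadjusted p under 0.05 in edgeR. No member had an NIPBL peak in a list labelled KO, so all 25 came in through WT peaks. Their WT values were thus partly fixed by that entry. The NIPBL calls therefore cannot test the members freely, and no conclusion is drawn from them. Of 37 members with a WAPL region, 5 were higher and 1 was lower in KO cells (16.2%), against 40.7% of 126089 regions (13.1% higher and 27.6% lower). The WAPL count fell to 0 without KO 1 and to 1 without KO 2, and it was 12 without WT 1 and 14 without WT 2. WAPL near F2rl3, the gene of a thrombin receptor, had 2.10 and 1.81 CPM in KO cells, against 0.823 and 0.346 in WT cells (log2 fold change 1.73 ± 0.39 SE, adjusted p = 0.0198, edgeR). Near Cdkn2c, an inhibitor of cyclin-dependent kinases, it had 1.55 and 1.74 in KO cells and 0.774 and 0.396 in WT cells (adjusted p = 0.0221, edgeR). Near Ttc34, which encodes a tetratricopeptide repeat protein, it had 1.64 and 1.71 in KO cells and 0.774 and 0.891 in WT cells (adjusted p = 0.0238, edgeR). The lower region, near Iqsec1, had 141 and 153 in KO cells and 281 and 344 in WT cells (log2 fold change -1.09 ± 0.11 SE, adjusted p = 0.00278, edgeR), over 1169 KO and 1196 WT input reads. Values in the KO and WT libraries did not overlap at any of these 4, which were picked by adjusted p, a choice that favours such values. Member regions with NIPBL or WAPL were rich in input DNA, with medians of 384 and 273 WT input reads per kb, against 27.2 for the members' CTCF regions. The part of input in these calls was not tested.

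Members lay near promoters more often than the knockout SMC3 sites did. Within 2 kb of a transcription start lay 832 members (18.9%), against 11.6% of knockout SMC3 sites, 19.9% of sites with no SMC3 peak and 18.7% of all 21429 CTCF peaks. From the lowest to the highest bin of the members' score range, the shares were 14.5%, 13.8%, 17.7% and 29.7% of members. Knockout SMC3 sites had 11.8%, 8.86%, 8.61% and 12.6% by bin. Sites with no SMC3 peak had 17.9%, 16.0%, 25.6% and 46.3%, the last of 41 sites. A high promoter share in the top bin was thus not particular to members, and scores are not fully matched within it. A further 1546 members (35.2%) lay in gene bodies, 1862 (42.4%) between genes within 200 kb of a start, and 151 (3.44%) farther out. The median distance to the nearest start was 14388 bp for members, 17125 bp for knockout SMC3 sites and 11238 bp for sites with none. RAD21 at promoter members against members between genes differed by library, at 16.1% against 17.2% in ATPneg 1, 89.7% against 95.8% in ATPneg 2, 8.41% against 14.8% in KO 1 and 0.841% against 0.376% in KO 2. Promoter members had a median CTCF score of 13.3, against 10.7 between genes. These are counts within the chosen classes and were not tested over samples.

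Members had 3607 nearest genes, of which 3067 had 1 member, 461 had 2 and 3 had 5 (Gnaz, Ksr2 and Xkr5). The members were spread out, with a median of 213294 bp between neighbours, and 301 were followed by another within 10 kb. The 7 gene lists of B cell biology, cohesin and energy metabolism, with 116 genes, held 22 members nearest to 18 genes, and 95 of the 116 genes were the nearest gene of some CTCF region. RAD21 had a peak at 3 of these 22 sites in ATPneg 1, at 21 in ATPneg 2 and at 2 in KO 1. Their CTCF scores ran from 5.35 to 30.2, with a median of 9.88.

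Over all genes, 3607 were the nearest gene of a member and 6111 of a knockout SMC3 site. They are set beside 10335 genes nearest to a CTCF site in both knockout CTCF lists. The lists below are to be read against these class sizes. Genes counted below as in the annotation are those nearest to any counted CTCF region, a wider base than the 10335. Shares on the 2 bases are therefore not directly comparable. Of 20 transcription factors of the B lineage, 19 of them in the annotation, 2 had a member and 13 had a knockout SMC3 site. Those with a member were Bcl11a, with sites 1.36 kb (chr11:23976188-23976701) and 2.86 kb (chr11:23980955-23981191) from its start, and Ebf1, which commits cells to the lineage, with a site 156.3 kb from its start (chr11:44588003-44588259). The first Bcl11a site had 14.8 and 18.1 CTCF CPM in KO cells and 20.1 and 3.96 in WT cells. Of 20 genes of pre-B receptor signalling and recombination, 16 of them in the annotation, 3 had a member and 10 had a knockout SMC3 site. Syk, the kinase below the pre-B receptor, had sites 74.9 kb and 68.0 kb from its start, with scores of 26.9 and 5.76. Rag2, a subunit of the recombinase that cuts immunoglobulin genes, had a site 27.2 kb from its start (chr2:101437340-101437646), which was among the members with a RAD21 peak in KO 1. RAD21 there was 4.56 and 0.278 CPM in KO cells, against 1.46 and 1.43 in WT cells, and the difference did not pass (adjusted p = 0.565, edgeR). Lig4, the ligase that seals those cuts, had a site 40.6 kb away.

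Among 18 genes of cohesin, its regulators, CTCF and the BRWD family, 13 of them in the annotation, 4 had members and 5 had knockout SMC3 sites. Stag2, a cohesin subunit, had a member over its start (chrX:39502271-39502644, score 30.2) with RAD21 peaks in both ATPneg libraries and in KO 1. RAD21 there was 5.23 and 1.25 CPM in KO cells, against 0.960 and 1.25 in WT cells, with the second values of the groups almost equal (adjusted p = 0.150, edgeR). Esco1, which acetylates SMC3, had a member over its start (score 25.5) with no RAD21 peak in either ATPneg library, alone among the 22. Nipbl, the gene of the loader, had one 0.33 kb from its start (chr15:8394794-8395665, score 13.2). Hdac8, which deacetylates SMC3, had 3, at 10.8 to 27.9 kb from its start. In energy metabolism, 14 genes of glycolysis were listed, 11 of them in the annotation. Of these, 3 had a member and 6 had a knockout SMC3 site. Pfkl and Gpi1, enzymes of glycolysis, had members over their starts, and Hk2, hexokinase, had one 33.6 kb away. Of 15 genes of oxidative phosphorylation, 12 of them in the annotation, 1 had a member (Atp5o, a subunit of the ATP synthase, 45.3 kb away) and 7 had a knockout SMC3 site. Of 14 genes of energy stress, 13 of them in the annotation, 4 had a member each and 5 had a knockout SMC3 site. Those with a member were Prkab1 and Stk11 of the AMPK pathway, Tsc1, a brake on mTOR, and Egln3, an oxygen-sensing hydroxylase. Of 15 proliferation genes, 11 of them in the annotation, 1 had a member (Mki67) and 7 had a knockout SMC3 site.

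The share of CTCF sites that were members was highest on the X chromosome. Of its 369 CTCF sites in both knockout CTCF lists, 154 (41.7%) were members, against 20.7% to 26.3% on the 19 autosomes. The X sites had lower CTCF scores, with a median of 10.4 against 15.8 elsewhere. The difference was also present within the same 4 score bins. From the lowest to the highest, members were 44.1%, 47.9%, 40.4% and 31.9% on the X, against 38.9%, 34.5%, 29.1% and 12.6% on the other chromosomes. In the highest bin scores were not matched, with medians of 22.5 on the X and 26.6 elsewhere. SMC3 in ATPneg 1 was called at 89.2% of X sites and at 92.8% of the others, while in KO 1 it was called at 31.7% and 57.5%. RAD21 in KO 1 went the same way, at 26.8% of X sites against 45.8% of the others. So did RAD21 in ATPneg 1, at 21.1% against 35.5%, while RAD21 in ATPneg 2 was at 91.9% and 92.4%. X sites had 23.5 WT input reads per kb (median), against 28.7 on the other chromosomes. The chromosome was singled out after its value was seen, and the part of read density in it was not tested.

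The histone mark libraries have doubtful labels, which touches every value that follows. The peak names in both lists labelled H3K27ac KO are those of H3K4me1, and the names in both lists labelled H3K4me1 WT are those of H3K27ac KO. Over 90527 regions shared by the 2 count tables, the libraries labelled H3K27ac KO had correlations of 0.981 to 0.982 (Pearson, log2 CPM, across regions of the same genome) with those labelled H3K4me1 WT, and of 0.970 with those labelled H3K27ac WT. Libraries labelled H3K4me1 KO had 0.966 to 0.968 with those labelled H3K4me1 WT. Genotype labels of the H3K27ac and H3K4me1 KO samples also read WT, and the titles were followed. A difference between KO and WT in these tables and a difference between the marks cannot be told apart. The cell type was read from H3K27ac at promoters, where 5 of 8 B lineage markers had a peak in both WT lists and 1 of 8 in both lists labelled KO. Markers of other cells with a peak in both WT lists were 2 of 4 for T cells, 1 of 4 for myeloid cells and 1 of 4 for erythroid cells. Summed promoter CPM was 48.5 and 45.6 in KO and 44.4 and 46.3 in WT for the B lineage, and 98.3 and 104.2 in KO and 109 and 113 in WT for erythroid markers, nearly all at Hbb-b1. Vpreb1 and Igll1 of the B lineage, Cd8a and Bcl11b of T cells, Mpo and Elane of myeloid cells and Klf1 and Epor of erythroid cells had no counted promoter region.

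Few members carried a mark peak, and few sites of the other CTCF classes did. In the WT lists H3K27ac was at 3.03% and 3.35% of members, against 3.84% and 3.81% of knockout SMC3 sites. H3K4me1 was at 7.61% and 7.13%, against 6.07% and 5.47%. In the lists labelled KO the shares were 1.69% and 1.62% against 3.12% and 2.97%, and 2.32% and 2.62% against 4.19% and 4.24%. Over all 21429 CTCF peaks the WT shares were 6.69% and 6.81% for H3K27ac and 11.1% and 10.6% for H3K4me1. H3K27ac peaks, which mark active promoters and enhancers, were at 74 and 71 members in KO and 133 and 147 in WT. H3K4me1 peaks, which mark enhancers and the flanks of promoters, were at 102 and 115 in KO and 334 and 313 in WT. Of these, 23 and 32 in the lists labelled H3K4me1 KO lay within 2 kb of a transcription start, against 233 and 222 in the lists labelled H3K4me1 WT, which are the ones that carry H3K27ac KO names. For H3K4me1, 429 members had a counted region, and their median was 2.25 and 2.27 CPM in KO, against 4.94 and 5.11 in WT. By edgeR 282 of them (65.7%) were lower and 46 (10.7%) higher in the libraries labelled KO, against 9.98% lower and 6.44% higher of all 179582 regions tested (16.4% either way, against 76.5% of members). Their median log2 fold change was -1.05, against 0.005 over all regions. Most of the lower calls were at promoters, where 239 of 283 members (84.5%) were lower, against 43.0% of all 13335 promoter regions. Away from promoters 43 of 146 members (29.5%) were lower, against 7.33% of all regions there. The knockout SMC3 sites showed 66.9% lower at promoters and 21.1% elsewhere, and the sites with no SMC3 peak 84.2% of 38 and 18.2% of 33, so the promoter share of members was close to that of sites without SMC3. The members with a region were those with a mark peak, and more came in through WT lists than through the lists labelled KO. Lower values in KO were thus partly fixed by that entry, and these counts do not stand for all 4391.

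**Figure D5:**
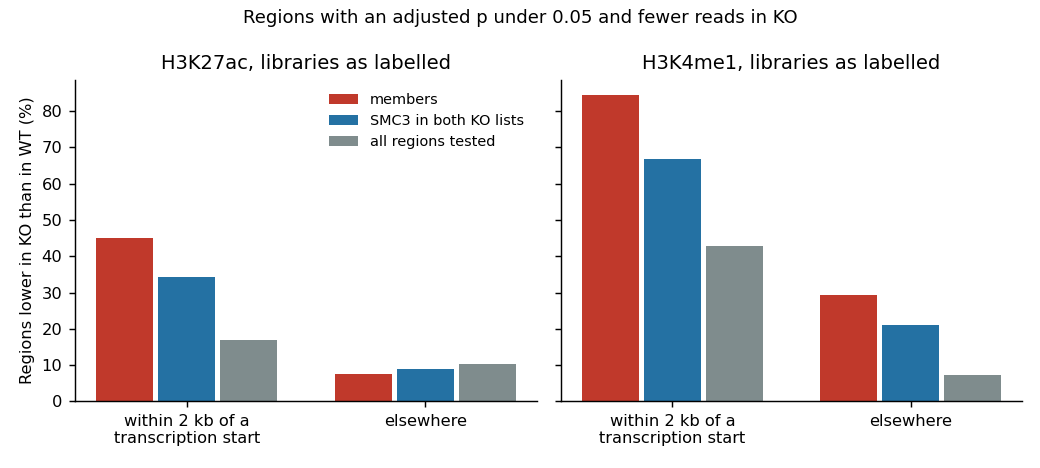
Share of tested regions called lower in KO than in WT (y axis, %, edgeR adjusted p under 0.05) within 2 kb of a transcription start and elsewhere, for members, sites with SMC3 in both KO lists and all regions, with libraries as labelled. In H3K4me1 84.5% of member promoter regions were lower, against 43.0% of all promoter regions.

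For H3K27ac, 176 members were tested, and 40 (22.7%) were lower and 12 (6.82%) higher, against 10.6% lower and 5.9% higher of all 235173 regions (16.5% either way, against 29.5% of members). When libraries were scaled by their totals, 32 were lower and 20 higher. At promoters 32 of 71 member regions were lower (45.1%), against 16.9% of all promoter regions, and elsewhere 8 of 105 (7.62%), against 10.3%. The median log2 fold change of the members was -0.08, against 0.02 over all regions. Here too more members came in through WT lists (133 and 147) than through the lists labelled KO (74 and 71). Lower calls were thus partly fixed by that entry.

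Individual members in the H3K4me1 table spanned a wide range. Aftph, a trafficking protein gene, had 2.67 and 1.63 CPM in KO, against 23.8 and 24.3 in WT, next to the member 1.01 kb from its start (log2 fold change -3.49 ± 0.13 SE, adjusted p = 9.49e-136, edgeR). At Smim14, which encodes a small membrane protein, the values were 4.25 and 4.01 in KO and 26.8 and 26.3 in WT (adjusted p = 1.08e-118, edgeR). The Nipbl promoter region had 5.23 and 5.58 in KO and 24.4 and 26.4 in WT (log2 fold change -2.24 ± 0.10 SE, adjusted p = 9.69e-96, edgeR). Near Cables1 the values were 45.8 and 46.8 in KO and 124 and 118 in WT (adjusted p = 1.03e-141, edgeR), in the same input-rich region as for RAD21. Higher values stood at the Ezh2 member, with 106 and 114 in KO and 54.4 and 58.0 in WT (log2 fold change 0.96 ± 0.05 SE, adjusted p = 2.63e-83, edgeR). Bbc3, the gene of the death inducer PUMA, had 25.4 and 26.6 in KO and 12.8 and 14.1 in WT 4.30 kb from its start (adjusted p = 1.81e-31, edgeR). Krtcap2, a subunit of the oligosaccharyltransferase, had 5.59 and 5.11 in KO and 0.988 and 0.769 in WT (adjusted p = 9.44e-30, edgeR). In none of these 7 did the KO and WT values overlap. All but Nipbl were picked by adjusted p, which favours such values, so this adds no support.

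In the H3K27ac table the Efcab2 promoter, of a calcium-binding EF-hand protein, had 1.42 and 1.07 CPM in KO, against 4.77 and 5.43 in WT (log2 fold change -2.03 ± 0.19 SE, adjusted p = 2.32e-19, edgeR). The promoter of Rad51d, a homologous recombination factor, had 13.3 and 13.4 in KO and 21.7 and 21.8 in WT (adjusted p = 2.99e-16, edgeR). The promoter of Tor1aip1, an inner nuclear membrane protein, had 0.292 and 0.488 in KO and 2.10 and 2.20 in WT (adjusted p = 6.99e-12, edgeR). The higher regions lay at Cables1, Kif2c and Ezh2. Kif2c, a kinesin that takes microtubules apart, had 25.5 and 27.6 in KO and 12.3 and 12 in WT (log2 fold change 1.12 ± 0.07 SE, adjusted p = 9.54e-34, edgeR). At Ezh2 H3K27ac was 26.4 and 25.4 in KO and 13.2 and 11.2 in WT (adjusted p = 1.23e-31, edgeR), higher in the libraries labelled KO in both mark tables. At Cables1 it was 116 and 129 in KO and 68.9 and 71.6 in WT (adjusted p = 3.21e-49, edgeR), higher in KO there and lower in KO in the H3K4me1 table. The groups did not overlap at any of these 6 regions, but picking them by adjusted p favours such values.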

How the data were processed

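ChIP-seq of 7 targets was analysed, in 36 libraries with 2 per target and condition. Reads were processed with BWA, Picard, MACS2, bedtools, featureCounts and edgeR on mm9, per the submitters' processing notes, whose versions and settings are not given in the sources used here. The authors deposited a peak list with a score per peak for each library and, for KO and WT cells, raw counts, input-subtracted counts and a normalized input-subtracted signal per region. Regions of a count table are the merged KO and WT peaks of its target, so a site has a count where such a peak was called. The deposited signal tables were used for region positions, their distances to genes and their gene annotation.

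Sites were overlapped with bedtools 2.31.1 and each was given the counted region it overlaps most. Raw counts of all regions of a target were fitted with edgeR 4.0.16 (quasi-likelihood test, TMM, filterByExpr, KO against WT), with p-values adjusted by Benjamini-Hochberg over all regions, and members were read off at an adjusted p under 0.05. DESeq2 1.42.0 was an alternative. The code was tested on simulated data. CPM values use TMM-scaled totals. Library totals in regions ran from 3784506 reads (NIPBL KO 2) to 30496715 (WAPL KO 1), and the limits on peak shares are exact 95% binomial intervals that cover counting error only. The labels call replicates biological but do not say which animals they came from. Replicate numbers were checked for pairing from the deviations of same-numbered libraries, whose correlation lay between -0.22 and 0.03 in the 7 tables, so they were not used as pairs. The 2 columns of an input that matches no sample title were not used.

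The members and the gene lists were chosen with earlier results of these data known. Sites named are the 6 with the highest CTCF score, up to 3 higher and 3 lower called members per target by adjusted p, members nearest to genes of the lists, and those at the edges of the rule; predicted, microRNA and Riken genes were passed over among called members. Comparisons of the sites with other classes are descriptions.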

Additional observations from a re-analysis of the deposited data

How the results depend on the processing

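Results rest on 2 libraries per group. The number of members was 1741 where every peak needed a score at least 2 times the lowest, and 3426 to 5173 under the other 4 choices. The RAD21 difference between ATPneg and WT cells ran from 16.1 to 93.7 points as single libraries were left out, and was 41.9 to 56.6 points under the other choices. With overlaps of at least 50% of the CTCF peak the NIPBL and WAPL differences were both -0.0342 points, and with the stricter score the WAPL difference was -0.228 points. Leaving out single libraries gave -0.342 to -0.137 points for NIPBL and -0.512 to -0.262 for WAPL. Of members called in RAD21 there were 7, against 54 by DESeq2 and 0 each with DESeq2 size factors, with no filter beyond 1 read, with input-subtracted counts and with the replicate block. Leaving out single libraries gave 0 to 570. In NIPBL, where none was called, library totals gave 2 and the replicate block 3. In WAPL, library totals gave 12, DESeq2 2 and input-subtracted counts 3, against 6, and leaving out single libraries gave 0 to 14. Without KO 2 the WAPL direction turned, with 1 call, which was lower. Scaling by library totals gave a median log2 fold change over all regions of -0.23 for NIPBL, 0.24 for WAPL and 0.13 for H3K27ac. In H3K27ac DESeq2 gave 14 calls, against 52, and leaving out single libraries gave 41 to 47. In H3K4me1 all alternatives run gave 259 to 330 calls, against 328, and leaving out single libraries gave 294 to 313. The replicate block moved no other count by more than 1.5 times. The causes of these differences were not tested, apart from the fewer libraries in a fit that leaves out a replicate. Call counts over all regions of a target also moved in such fits, so a moved count is not particular to the members. Member regions in RAD21 had a median of 3 reads in KO 2 and 34 in KO 1, at similar library totals. Most of these regions were counted because of a KO 1 peak, so KO 1 was bound to be high there.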
